A study of Mus musculus with 8 samples.

Results

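The step from the border zone into the infarct zone was followed in hearts of wild-type (WT) mice and of mice lacking TIGAR, the fructose-2,6-bisphosphatase that turns glucose away from glycolysis. The comparison takes 4 of the 8 libraries of the series, chosen by zone alone: WT infarct, TKO infarct, WT border and TKO border. The animals were males, and TKO mice carried a whole-body *Tigar* knockout. All 4 libraries came from hearts with permanent ligation of the left anterior descending coronary artery at 16 weeks of age, and the hearts were studied 4 weeks later. Each zone of each genotype is 1 library of bulk RNA, and the infarct RNA was a pool of 3 mice per genotype. The number of mice behind each border library, and whether both zones came from the same hearts, is not given in the sources used here.

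After a coronary artery is closed for good, the heart muscle it fed dies and is replaced within weeks by a scar of collagen made by activated fibroblasts. Macrophages clear the debris, and late scar fibroblasts take on a tendon- and cartilage-like program. The border zone is the surviving muscle next to the scar, where stretched cardiomyocytes switch on fetal genes such as natriuretic peptides and the slow myosin heavy chain.

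Values below are counts of reads per gene, or CPM (counts scaled to a common library size) after trimmed-mean (TMM) scaling, which sets libraries level on the bulk of their genes. The "step" is the CPM ratio of infarct over border, given for WT, for TKO and as the fold fitted over both with genotype as a block. The "double ratio" is the TKO step over the WT step. A gene passed the test when the edgeR quasi-likelihood test gave an adjusted p under 0.05. With 1 library per genotype and zone, the spread in that test is the disagreement between the WT and the TKO step on 1 residual degree of freedom, so it speaks of these libraries and not of mice. Total counts were 27429240 in WT infarct, 28419083 in TKO infarct, 32245722 in WT border and 33218328 in TKO border. *Tigar* (chr6:127085116-127109557, mm10) had 2215 counts in WT border, 1066 in WT infarct, 79 in TKO border and 87 in TKO infarct. Both TKO libraries were thus low in *Tigar*, as their labels say, and within WT the gene was lower in the scar, at 0.350 of border. Some libraries stood apart by markers of other tissues: lung epithelium genes were high in both infarct libraries and fast skeletal muscle genes in both WT zone libraries, with values given beside those lists.

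Of 12999 genes tested, 3278 (25.2%) were higher and 3107 (23.9%) lower in the infarct zone, together 49.1%. Of these, 1536 (11.8%) were higher and 831 (6.39%) lower by at least 2-fold. Counts of list members that rose or fell, given below, are to be read beside the 25.2% and 23.9% of all genes. WT and TKO shared the direction of all but a handful of calls (3273 among those called higher, 3105 among those called lower). The test itself favours such agreement, because its spread is the disagreement between the WT and the TKO step. Their sizes differed more among falling than among rising genes: for genes that fell at least 2-fold the WT median fall was 2.76-fold, the TKO median fall was 1.92-fold, and WT fell further in 768 of 831 (92.4%). Over all genes tested, whatever the direction, the WT step was the larger in 63.7%. For genes that rose at least 2-fold the medians were closer, at 2.71 (WT) and 2.77 (TKO), and WT rose further in 690 of 1536 (44.9%). Counted one genotype at a time, 1341 genes (10.3%) were at least 2-fold lower in the WT scar and 416 (3.2%) in the TKO scar, against 1648 (12.7%) and 1595 (12.3%) at least 2-fold higher. These counts moved with the scaling and with the library left out. With library totals alone 8291 genes were higher and 942 lower, since the median gene then moved by 0.71 (WT) and 0.50 (TKO) on the log2 scale. Fits that left out a library used another model, which took in the left ventricle and remote libraries and drew its spread from all remaining libraries. With all 8 libraries kept, that model called 2814 genes higher and 2842 lower. Without the TKO border library 352 genes were higher and 62 lower, and without the WT border library 650 and 154. Lists followed: with either border library left out, 0 of 20 sarcomere genes and at most 1 of 28 fatty acid oxidation genes were called lower, while 7 (without WT border) and 5 (without TKO border) of 11 fibrillar collagens were still called higher.

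**Figure D1:**
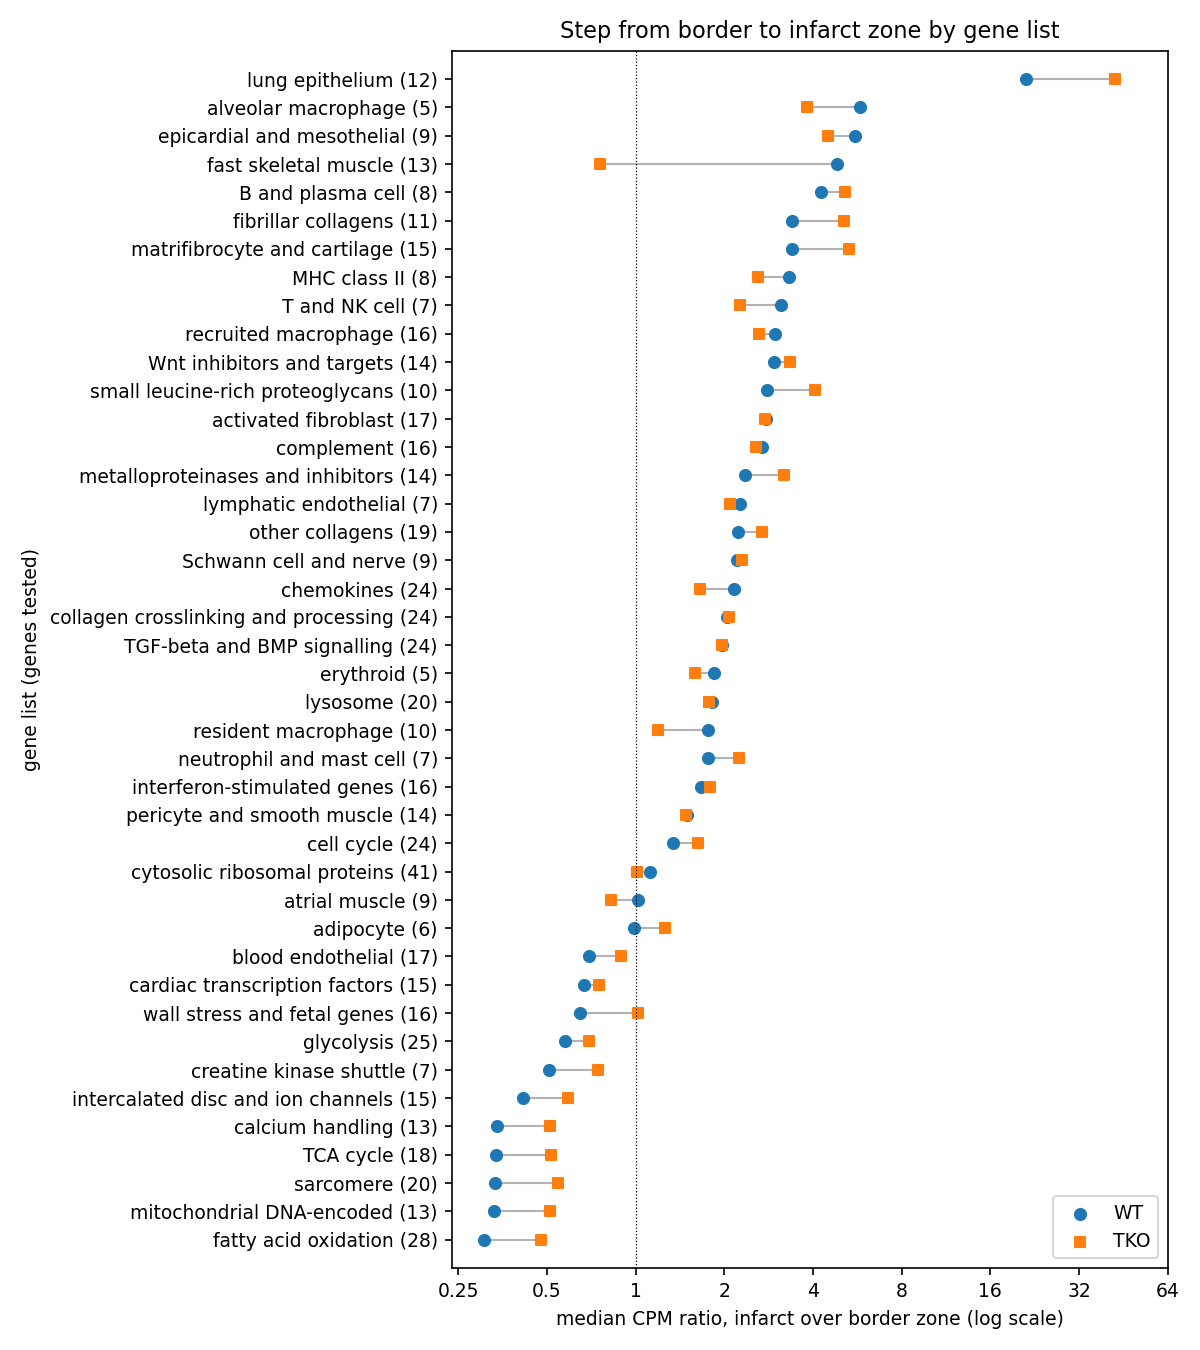
Median step (CPM ratio, infarct over border, log2-spaced axis) of 42 gene lists in WT (circles) and TKO (squares), with the number of genes tested in brackets and a grey line joining the genotypes. The sarcomere, calcium handling, disc and energy lists lie left of 1 with TKO nearer to 1, wall stress genes straddle 1 (0.647 in WT, 1.02 in TKO), collagen lists lie right of 1 with TKO further out, and the fast skeletal muscle list splits, at 4.83 in WT and 0.760 in TKO.

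Contractile genes were lower in the scar in both genotypes, and less so in TKO. Of 20 sarcomere genes, 12 fell and 0 rose, with a median step of 0.334 in WT and 0.545 in TKO. The WT ratio was below 1 in 20 of 20 and the TKO ratio in 19 of 20, against 48.6% and 49.1% of all genes. All 20 double ratios were above 1, where 58.9% of all genes were, and their median was 1.63, beside 1.045 for all genes. Summed over the list, CPM went from 52370 to 17620 in WT and from 58870 to 32690 in TKO. The border libraries were close to each other and the infarct libraries were not. In bulk tissue, fewer muscle cells and less RNA per muscle cell cannot be told apart.

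*Tnni3*, cardiac troponin I, had 76281 counts in WT border, 31192 in WT infarct, 96640 in TKO border and 56143 in TKO infarct. Its fitted step was 0.379 (SE 0.39 on the log2 scale, edgeR adjusted p = 0.0328), with 0.298 in WT and 0.482 in TKO. *Actn2*, the Z-disc actinin, fell to 0.422 of border (edgeR adjusted p = 0.0271). *Myh6*, the adult fast myosin heavy chain of the mouse ventricle (chr14:54941921-54966927), stood at 5234 CPM in WT border, 1072 in WT infarct, 7248 in TKO border and 3654 in TKO infarct. Its step was 0.205 in WT and 0.504 in TKO, a double ratio of 2.46 (95% interval 2.43 to 2.49). Intervals here cover counting error only, and since the reads carry no molecular identifiers they cannot be taken as independent molecules. The WT infarct library is the one that stood low. With the genotypes that far apart *Myh6* did not pass the zone test (fitted fold 0.321, edgeR adjusted p = 0.0649), nor did *Actc1* (0.463, edgeR adjusted p = 0.142).

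*Myh7*, the slow and fetal myosin heavy chain (chr14:54970684-54994626, beside *Myh6*), took opposite steps. It had 64127 counts in WT border, 48863 in WT infarct, 19571 in TKO border and 42529 in TKO infarct. As CPM, both infarct libraries were level, at 1155 and 1190, and the border libraries were not, at 2081 in WT and 660 in TKO. The step was 0.555 in WT and 1.80 in TKO, a double ratio of 3.25 (95% interval 3.18 to 3.32). The test of the genotype difference, in which the left ventricle and remote libraries give the spread, left it at an edgeR adjusted p of 1.0.

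Other genes of the muscle cell moved with the sarcomere. Of 13 calcium-handling genes 9 fell, among them *Ryr2*, the calcium release channel (0.415, edgeR adjusted p = 0.0121), and *Jph2*, which holds the dyad together (0.417, edgeR adjusted p = 0.0101). *Atp2a2*, the sarcoplasmic calcium pump, had 241818 counts in WT border, 88023 in WT infarct, 312252 in TKO border and 175358 in TKO infarct, and its step was 0.265 in WT and 0.466 in TKO. It did not pass (edgeR adjusted p = 0.0893). The only member that rose was *Fkbp1b* (2.01-fold), at 21 to 134 counts. Of 15 genes of the intercalated disc and ion channels 13 fell, from *Kcnd2*, a transient outward potassium channel (0.303), to *Jup*, the plakoglobin of desmosomes (0.637). Among 15 cardiac transcription factors 10 fell and 2 rose. *Esrrb* and *Esrrg*, estrogen-related receptors that drive oxidative genes, were at 0.423 and 0.424, and *Nkx2-5* was at 0.546. *Tbx20* rose to 1.63. The list median of these factors, 0.670 in WT and 0.751 in TKO, turned to 1.08 and 1.06 with library totals alone.

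Fuel genes moved nearly as a block. Of 28 genes of fatty acid oxidation, 27 fell and 0 rose, with a median step of 0.306 in WT and 0.477 in TKO. Double ratios were above 1 in 26 of 28, against 58.9% of all genes. *Fabp3*, the muscle fatty acid carrier, had 86289 counts in WT border, 31168 in WT infarct, 93732 in TKO border and 49348 in TKO infarct (fitted 0.339, edgeR adjusted p = 0.0249). *Plin5*, which ties lipid droplets to mitochondria, was lowest of the list at 0.310. The exception was *Cpt1a*, the non-muscle isoform of the carnitine transferase, at 1.17 (edgeR adjusted p = 0.0934), where muscle *Cpt1b* fell to 0.411. Of 18 tricarboxylic acid cycle genes 17 fell, and *Ppargc1a*, the coactivator of mitochondrial biogenesis, fell to 0.503. *Idh3a* alone of the cycle had no common direction, at 1.35 in WT and 0.732 in TKO.

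Transcripts of the mitochondrial genome made up 38.0% of counts in WT border and 20.7% in WT infarct, against 38.8% and 27.9% in TKO. All 13 were lower in both scars, with a median step of 0.331 in WT and 0.511 in TKO, yet only *ATP8* passed the test (0.404, edgeR adjusted p = 0.0460). DESeq2 called all 13 lower. Glycolysis split by isoform: 11 of 25 genes fell and 3 rose, beside 23.9% and 25.2% of all genes. Muscle enolase *Eno3* (0.354) and the insulin-responsive glucose carrier *Slc2a4* (0.394) fell, while the leukocyte hexokinase *Hk3* (2.51), the regulatory kinase *Pfkfb3* (1.68) and the lactate exporter *Slc16a3* (2.53) rose. In the same way muscle creatine kinase *Ckm* fell to 0.355 and brain-type *Ckb* rose to 1.51.

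Stress genes of the cardiomyocyte did not share a direction. Of 16 wall stress and fetal genes, 4 rose and 5 fell, beside 25.2% and 23.9% of all genes. A double ratio of at least 2 was seen for 6 of the 16, against 2.62% of all genes. One of the 6, the fetal troponin *Tnni1*, had 2 counts in TKO border. *Acta1*, skeletal actin re-expressed under load, had 18211 counts in WT border, 7087 in WT infarct, 15185 in TKO border and 10618 in TKO infarct, and fell to 0.406 (edgeR adjusted p = 0.0190). *Nppa*, atrial natriuretic peptide (chr4:148000722-148002079), had 51584, 126364, 13881 and 74576 counts in the same order and rose 2.82-fold (edgeR adjusted p = 0.0436). Its step was 1.78 in WT and 4.46 in TKO: the TKO border library was far below the WT border library and the infarct libraries lay closer together. *Nppb*, the ventricular peptide, went the opposite way in the 2 genotypes without passing (0.645 in WT, 1.22 in TKO, edgeR adjusted p = 0.622). *Ccn2*, a fibrogenic matricellular protein, rose 4.08-fold. The list median, 0.647 in WT and 1.02 in TKO, became 1.04 and 1.44 with library totals alone. The atrial muscle list, which shares *Nppa*'s chamber, is given with the tissue markers below.

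**Figure D2:**
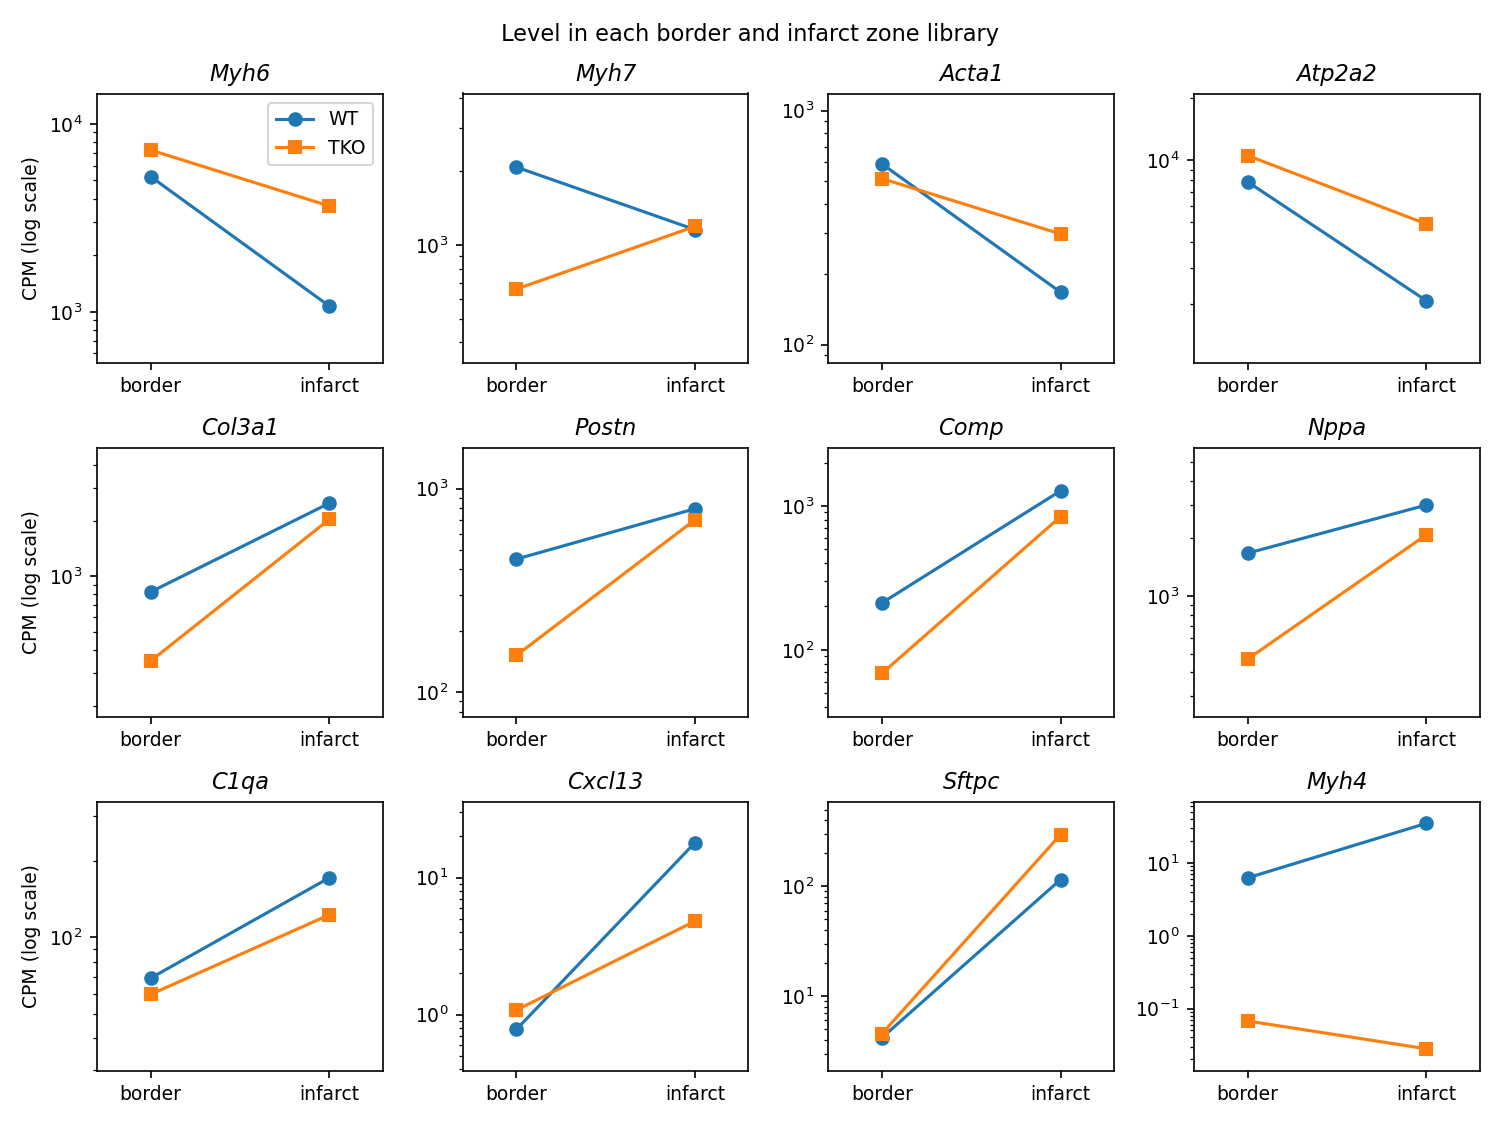
CPM (log axis) of 12 genes in the border and infarct zone libraries of WT (circles) and TKO (squares), 1 library per point and a line joining the zones of a genotype. *Myh7* falls in WT from 2081 to 1155 and rises in TKO from 660 to 1190, *Postn*, *Comp* and *Nppa* start lower in TKO border, and *Myh4* is high in the WT libraries alone.

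Collagen rose in the scar of both genotypes. Of 11 fibrillar collagen genes, 10 rose and 0 fell, with a median step of 3.40 in WT and 5.10 in TKO. *Col3a1* (chr1:45311538-45349706), the pliable collagen of early scar, had 25374 counts in WT border, 105069 in WT infarct, 10340 in TKO border and 72654 in TKO infarct, and rose 4.19-fold (edgeR adjusted p = 0.0101). *Col1a2*, a chain of the stiff type I fibril, rose 4.21-fold (edgeR adjusted p = 0.00530). The cartilage collagen *Col2a1* had 19 counts in WT border, 454 in WT infarct, 2 in TKO border and 121 in TKO infarct. Its step was 17.4 in WT (95% interval 11.02 to 29.2) and 50.2 in TKO (13.6 to 419), the latter on 2 border counts. *Col11a2* did not pass, at 3.58 in WT and 0.762 in TKO. Of 19 other collagens 14 rose: *Col8a2* 6.54-fold and *Col14a1* 4.96-fold, against 1.40 for the basement membrane gene *Col4a1*, which did not pass (edgeR adjusted p = 0.118).

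The TKO-to-WT ratio of collagen genes was lower in the border than in the infarct. Within the infarct zone the median TKO-to-WT ratio of the 11 fibrillar genes was 0.801, and within the border zone it was 0.559, against 1.005 and 0.999 over all genes. TKO was the lower genotype in both zones, with 11 of 11 genes below WT in the infarct and 10 of 11 in the border. Muscle lists also had the lower ratio in the border, but they lay above 1, and further from 1 in the infarct. The sarcomere ratio was 1.10 in border and 1.82 in infarct, and that of fatty acid oxidation was 1.29 and 1.98. The 4 CPM values of *Postn* show the collagen layout, with the wider gap in the border. Periostin (chr3:54361109-54391037), made by activated fibroblasts, stood at 450 CPM in WT border, 151 in TKO border, 795 in WT infarct and 702 in TKO infarct. Its step was 1.77 in WT and 4.64 in TKO (double ratio 2.62, 95% interval 2.53 to 2.72) and the fitted fold was 2.86 (edgeR adjusted p = 0.0247). The genotype difference of this step did not pass (unadjusted p = 0.0638, edgeR adjusted p = 1.0).

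**Figure D3:**
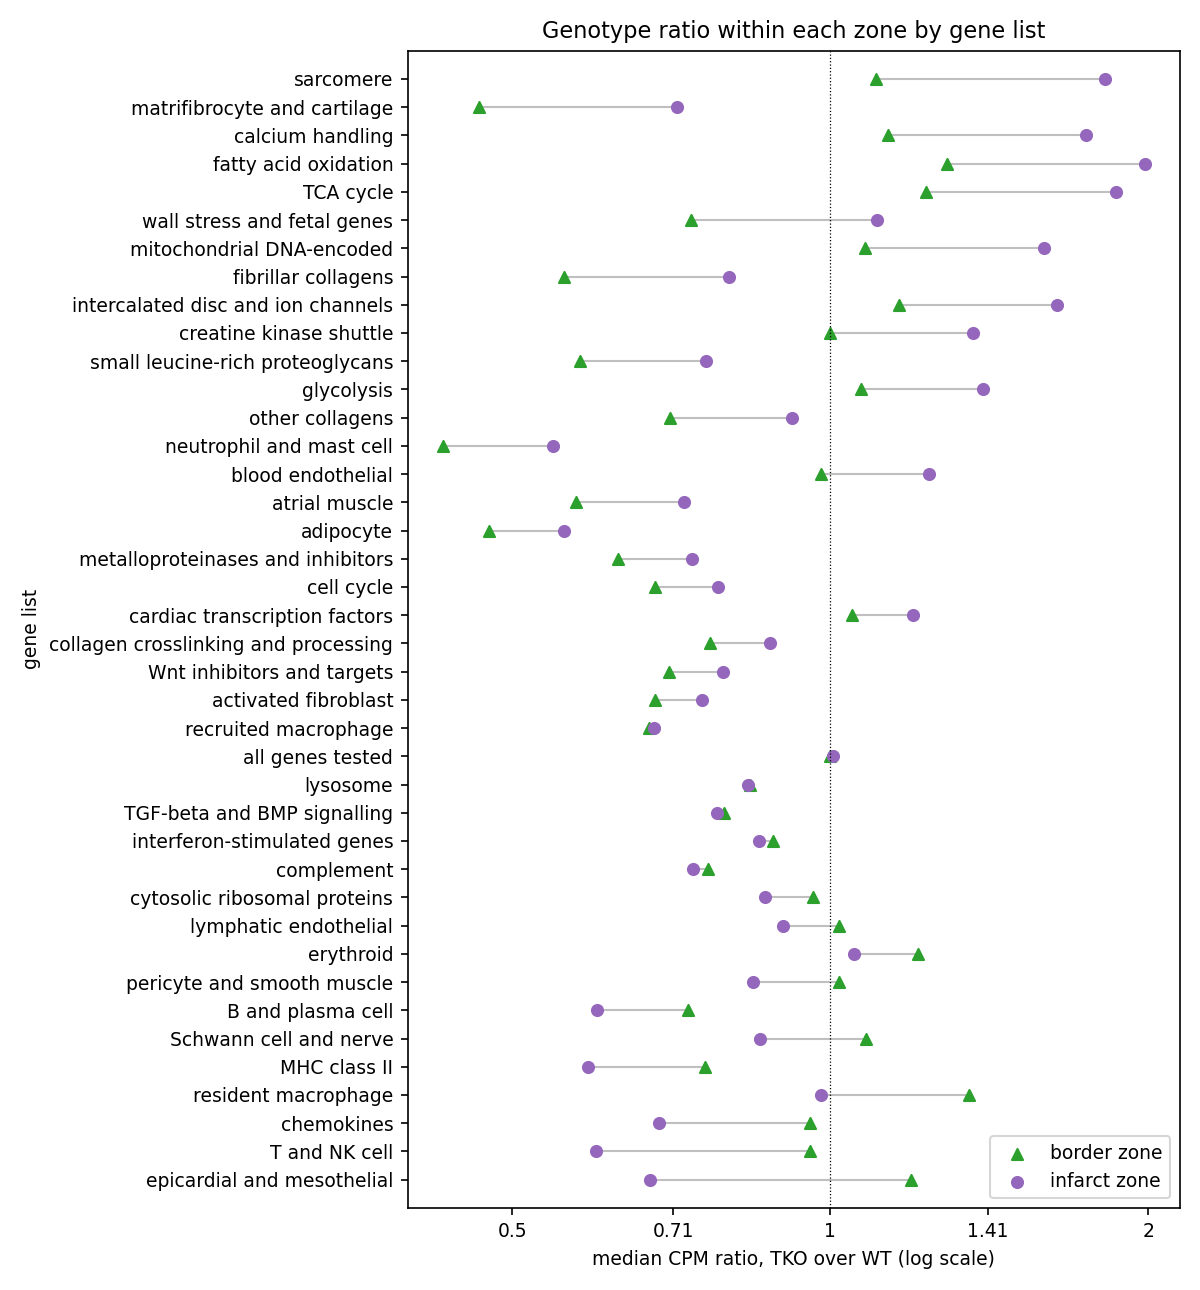
Median CPM ratio of TKO over WT (log2-spaced axis) for 39 gene lists and for all genes, in the border zone (triangles) and the infarct zone (circles). The sarcomere list moves from 1.10 in border to 1.82 in infarct and fatty acid oxidation from 1.29 to 1.98, fibrillar collagens move from 0.559 to 0.801, and chemokine, T cell and MHC class II lists drop further below 1 in the infarct.

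Genes of the fibroblast also rose. Of 17 activated fibroblast genes 15 rose, from *Fap* (1.66) to *Cthrc1* (5.45), a collagen-triple-helix protein of scar fibroblasts. The median step was 2.78 in WT and 2.75 in TKO, and 11 of 17 double ratios were above 1, against 58.9% of all genes. *Fn1*, fibronectin, stood apart from the list: 504 counts in WT border and 2836 in WT infarct, but 1616 in TKO border and 1227 in TKO infarct, hence 4.10 in WT and 0.630 in TKO. The contractile pair *Acta2* and *Tagln* had WT steps of 3.61 and 4.53 and TKO steps of 1.91 and 2.43. These are also smooth muscle genes, and *Cnn1* (6.14 in WT, 1.91 in TKO) and *Myh11* (4.20 and 2.47) had the same order. Of 24 genes of collagen processing 19 rose, led by *P4ha3*, a prolyl hydroxylase (4.92), *Loxl3* (4.56) and *Lox* (4.38), which cross-link collagen. All 10 small leucine-rich proteoglycans rose, from *Podn* (2.24) to *Fmod* (6.27), a regulator of fibril width.

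The tendon- and cartilage-like program had a median step of 3.40 in WT and 5.28 in TKO. Of 15 genes of this list, 12 rose and 1, *Alpl*, fell (0.613). *Comp*, cartilage oligomeric matrix protein (chr8:70373558-70382066), had 6527 counts in WT border, 53811 in WT infarct, 2035 in TKO border and 30128 in TKO infarct. It rose 8.58-fold (SE 0.35 on the log2 scale, edgeR adjusted p = 0.00337), 6.01 in WT and 12.3 in TKO. *Acan*, aggrecan, rose 9.16-fold, *Angptl7* 7.81-fold, and *Sox9*, the master factor of cartilage, 5.02-fold, the last close between genotypes (4.75 and 5.39). *Chad* went against the list, at 6.58 in WT and 2.90 in TKO. Median double ratio was 1.80, with 5 of 15 genes at 2 or more, against 2.62% of all genes.

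Signalling genes of the scar rose as well. Of 24 genes of TGF-beta and BMP signalling 16 rose and 1, *Bmp7*, fell. The ligand *Tgfb3* rose 3.33-fold and *Tgfb1* 1.38-fold, the receptors *Tgfbr1* and *Tgfbr2* about 2-fold (2.10 and 2.03), the matrix anchors *Ltbp2* 5.43-fold and *Ltbp4* 1.92-fold, and the BMP antagonist *Chrdl1* 6.27-fold. The list's median double ratio was 1.12 and became 0.974 with library totals alone. Of 14 Wnt genes 9 rose, chiefly secreted inhibitors: *Sfrp2* (8.21; 5.76 in WT and 11.8 in TKO), *Frzb* (5.94), *Dkk3* (5.72) and *Sfrp1* (3.97). Of 14 metalloproteinases and inhibitors 11 rose and 2 fell, the latter being *Timp4* (0.383), the inhibitor of heart muscle, and *Mmp15* (0.434).

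Macrophage genes rose, with 8 of 16 double ratios of recruited macrophage genes above 1, against 58.9% of all genes. Of these 16 genes 14 rose, and the median step was 2.97 in WT and 2.62 in TKO. *Apoe* had 17504 counts in WT border, 71423 in WT infarct, 14612 in TKO border and 47142 in TKO infarct (fitted 2.82, edgeR adjusted p = 0.00981). *Lgals3*, galectin-3, rose 4.19-fold, *Trem2* 3.45-fold and *Spp1*, osteopontin, 3.12-fold. Of 10 genes of resident macrophages 5 rose and 1 fell, the scavenger receptor *Cd163* (0.777), whose direction turned with library totals alone and without the TKO border library. Of 16 complement genes 15 rose, *C3* 3.86-fold and *C1qa* 2.27-fold, and of 20 lysosomal genes 14, led by *Atp6v0d2* (4.46) and *Ctsk* (3.61). Lung epithelium genes, whose tissue holds macrophages and lymphocytes of its own, summed to 11.3 CPM in WT border, 221 in WT infarct, 10.2 in TKO border and 522 in TKO infarct. Their part in the immune results was not tested.

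Lymphocyte and antigen-presentation genes also rose. Of 8 MHC class II genes 7 rose, beside 25.2% of all genes, with a median step of 3.33 in WT and 2.60 in TKO. Of the 8, 1 had a double ratio above 1, against 58.9% of all genes. *Cd74*, the invariant chain, had 4678 counts in WT border, 20567 in WT infarct, 3469 in TKO border and 10471 in TKO infarct, a step of 3.20 (WT) and 2.51 (TKO) (fitted 2.83, edgeR adjusted p = 0.00397). Of 7 T and NK cell genes 5 rose, *Cd3g* with steps of 5.89 (WT) and 3.12 (TKO). This list was thinly counted, at a summed CPM of 10.06 in WT border, 31.06 in WT infarct, 9.37 in TKO border and 19.05 in TKO infarct. With the filter at a mean CPM of at least 5, 0 of its genes were called. All 8 B and plasma cell genes rose: *Igkc* 4.89-fold, *Jchain* 5.37-fold and *Ighm* 8.36-fold (12.4 in WT, 5.58 in TKO). The median step of the B cell list was 4.26 in WT and 5.15 in TKO.

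Of 24 chemokines 13 rose and 0 fell, the median step was 2.15 in WT and 1.66 in TKO, and 6 had a double ratio of 0.5 or less, against 1.95% of all genes. *Cxcl13*, the B cell attractant (chr5:95956951-95961068), had 24 counts in WT border, 761 in WT infarct, 32 in TKO border and 172 in TKO infarct. It rose 10.4-fold (edgeR adjusted p = 0.00711), 23.1-fold in WT (95% interval 15.4 to 36.3) and 4.46-fold in TKO (3.04 to 6.72). *Ccl3*, *Ccl4* and *Cxcl2*, early chemokines of myeloid cells, took opposite steps: *Ccl3* had 57 counts in WT border, 152 in WT infarct, 406 in TKO border and 216 in TKO infarct. The high library of all 3 was TKO border. The stromal chemokine *Cxcl12* had a step of 0.920 in WT and 0.915 in TKO. *Cxcl5* ran against the list, at 1.83 in WT and 4.72 in TKO.

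Blood and lymphatic endothelial lists did not move alike. Of 17 blood endothelial genes 8 fell and 3 rose, beside 23.9% and 25.2% of all genes. The fatty acid handlers of capillaries fell, *Gpihbp1* to 0.527 and *Fabp4* to 0.548, as did the VEGF receptor *Kdr* (0.669). *Plvap*, the diaphragm protein of fenestrated vessels, rose 3.65-fold alike in both genotypes (3.68 and 3.62), with *Vwf* at 1.62 and *Cldn5* at 1.37. Pan-endothelial *Pecam1* was at 0.987 (edgeR adjusted p = 0.915). The list median, 0.694 in WT and 0.892 in TKO, turned to 1.12 and 1.26 with library totals alone. Of 7 lymphatic genes 6 rose, such as *Pdpn* (3.19) and *Ccl21a* (3.04), and *Prox1*, which heart muscle also expresses, fell to 0.606. *Lyve1* of this list is also on the resident macrophage list. Of 9 genes of Schwann cells 7 rose. *Sox10*, the neural crest factor, had 47 counts in WT infarct, 25 in TKO infarct and 0 in both borders, at least 11.4-fold higher in WT with 3 counts per library as the floor, but it had 52 to 85 counts in the left ventricle and remote libraries. Of 9 epicardial and mesothelial genes 6 rose, led by *Upk1b* (7.68) and *Upk3b* (6.71; 10.1 in WT, 4.55 in TKO).

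Further lists are set here beside 25.2% of all genes that rose and 23.9% that fell. Of 16 interferon-stimulated genes 11 rose, with a median of 1.67 in WT and 1.79 in TKO, for example *Ifit3* (2.19). Of 24 cell cycle genes 7 rose, among them *Mki67* (1.85) and *Mcm5* (2.13), and *Cenpf* fell to 0.476. Of 7 neutrophil and mast cell genes 3 rose, and *S100a9* had steps of 1.43 (WT) and 4.11 (TKO). Of 41 ribosomal protein genes 1 rose and 1 fell, with a median step of 1.12 in WT and 1.01 in TKO. Their double ratio was below 1 in 37 and above 1 in 4, where 58.9% of all genes were above 1. Of 5 erythroid genes 3 rose, with a median of 1.85 in WT and 1.60 in TKO. Of 6 adipocyte genes 1 rose (*Car3*, 1.48) and 1 fell (*Cidea*, 0.435).

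**Figure D4:**
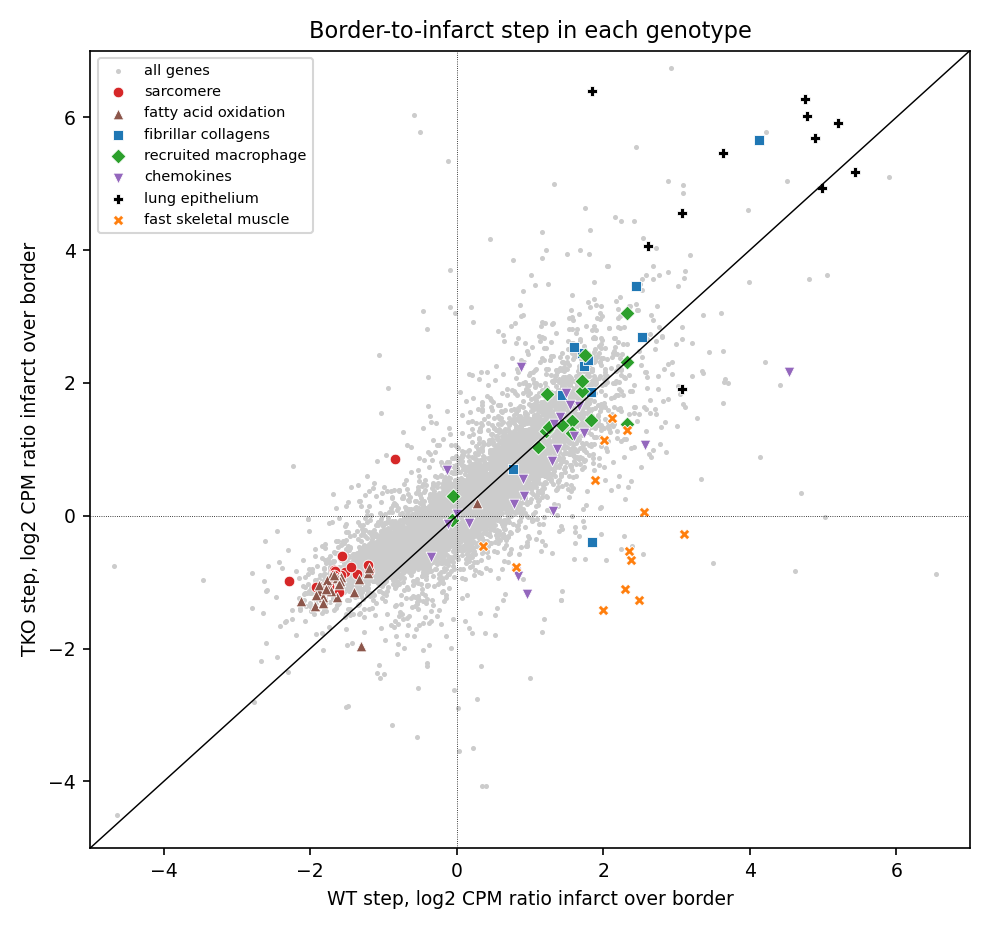
Step of each gene in WT (horizontal) and TKO (vertical), as log2 CPM ratios of infarct over border, for 12935 genes with counts in all 4 libraries, and with the diagonal of equal steps; 3 genes lie outside the axes. Sarcomere and fatty acid genes sit above the diagonal at negative values, most fibrillar collagens above it at positive values, lung genes at the upper right and fast skeletal muscle genes below it.

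Markers of tissues other than the ventricle differed between the libraries, and not all in the same way. After their values were seen, lists of lung epithelium, fast skeletal muscle and alveolar macrophage genes were added, so they are described without weight on their tests. Of 12 lung epithelium genes all 12 were called higher in the infarct, with a median step of 21.1 in WT and 42.4 in TKO, though 0 were called with either border library left out. *Sftpc*, surfactant protein C of alveolar type 2 cells (chr14:70520949-70524081), had 129 counts in WT border, 4871 in WT infarct, 135 in TKO border and 10576 in TKO infarct. *Ager*, of alveolar type 1 cells, had 28, 477, 17 and 898 in that order, and the club cell gene *Scgb1a1* 22, 108, 12 and 1220. The list summed to 11.3, 221, 10.2 and 522 CPM, so TKO infarct was the highest library. The tight junction gene *Cldn18* had 0, 200, 2 and 290. Of 5 alveolar macrophage genes 3 were called higher and 1 lower. *Chil3* had 153, 3928, 22 and 1450 counts, *Marco* 12, 208, 15 and 75, and *Ear2* 11, 99, 9 and 67. *Car4* was called lower (0.566), and *Pparg* stood at 0.753 without passing.

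The fast skeletal muscle list was high in WT alone, at 62.1 CPM in border and 262 in infarct, against 14.0 and 10.4 in TKO. *Myh4*, the fast IIb myosin of limb and body wall muscle, had 193 counts in WT border, 1486 in WT infarct, 2 in TKO border and 1 in TKO infarct. *Atp2a1*, the fast muscle calcium pump, had 263, 1874, 29 and 22. All 13 genes had a double ratio below 1 and 11 of them 0.5 or less. Of 13 genes 9 were called higher, and 0 were without WT infarct, without WT border or without TKO border, against 8 without TKO infarct. Without WT infarct *Atp2a1* turned to −1.68 on the log2 scale. The atrial muscle list summed to 180 CPM in WT border, 418 in WT infarct, 113 in TKO border and 268 in TKO infarct, of which *Dkk3*, a Wnt modulator counted above, made up 275 CPM in WT infarct and 206 in TKO infarct. *Sln* and *Myl7*, atrial in the adult, were level in WT (1.02 and 1.01) and low in TKO infarct (0.0856 and 0.135). The part of lung, body wall and atrial tissue in the blood and lymphatic endothelial, epicardial and stress results was not tested.

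**Figure D5:**
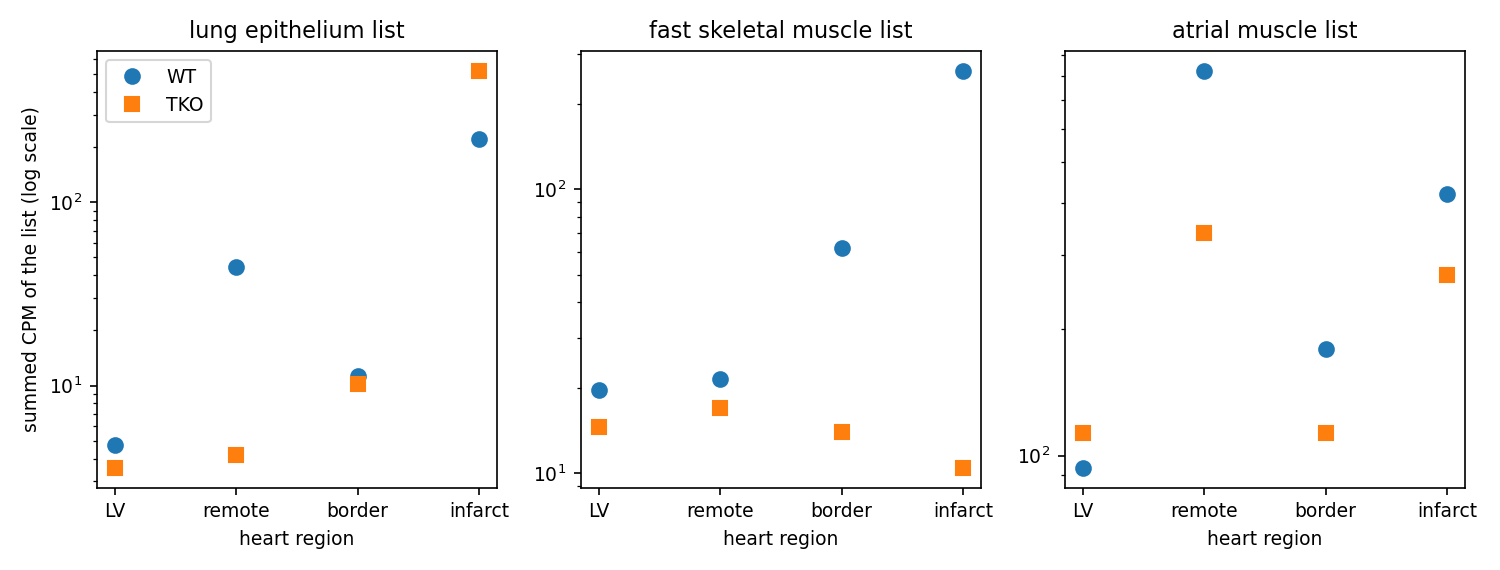
Summed CPM (log axes) of the lung epithelium, fast skeletal muscle and atrial muscle lists in all 8 libraries, by heart region, with WT as circles and TKO as squares. Lung genes are high in both infarct libraries (221 and 522) and at 44.2 in WT remote, skeletal muscle genes in WT infarct (262) and WT border (62.1), and atrial genes in WT remote (824).

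The genotype difference of the step passed for no single gene. Testing 12999 genes over all 8 libraries, with left ventricle and remote zone sharing one genotype term, edgeR called 0 (0.0%), with 321 at an unadjusted p under 0.05 and a smallest adjusted p of 0.145. DESeq2 called 7. As a description, 340 genes (2.62%) had a double ratio of at least 2 and 254 (1.95%) of 0.5 or less. Opposite steps of at least 1.5-fold each were seen for 50 genes (0.385%), 33 of them higher in the WT scar and lower in the TKO scar, and 24 with at least 400 counts. The genes called by DESeq2 included *Qser1*, *Gm14440*, *Sorbs3*, *Cntn2* and *Morc3*.

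Many extreme ratios came from genes counted in some libraries and nearly absent from others. *Qser1* had 20 counts in WT border but 893 in WT infarct, 821 in TKO border and 979 in TKO infarct. *Sorbs3* had 131, 688, 145 and 1 in WT border, WT infarct, TKO border and TKO infarct. *Gm14440* had 0, 121, 363 and 0. At the top of the zone steps *Fat1* had 843 and 694 counts in the infarct libraries and 0 in both borders, steps of at least 205 (WT) and at least 192 (TKO). *Tsc2*, a growth regulator that cells of all kinds express, had 267 and 102 against 0 and 0. Of 12576 genes with at least 200 counts in all, 46 had 3 or fewer in at least 1 of the 4 libraries, and 18 of the 46 were called for the zone step. The counts are estimates that apportion reads among transcripts, and the source of these zeros was not tested.

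At the low end, free of such zeros, *Epha4*, an ephrin receptor (chr1:77367185-77515088), had 528 counts in WT border, 29 in WT infarct, 718 in TKO border and 38 in TKO infarct. It fell to 0.0422 (SE 0.15 on the log2 scale, edgeR adjusted p = 0.00193), 0.0400 in WT and 0.0439 in TKO. *Asb18*, a muscle ubiquitin-ligase adaptor, fell to 0.145, *Scd4*, the cardiac stearoyl desaturase, to 0.184, and *Gpr22*, an orphan receptor of heart muscle, to 0.209. The borders of *Gpr22* were unlike, with 141 counts in WT and 646 in TKO, and its step was 0.351 in WT and 0.136 in TKO.

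Promoters of the moving genes were searched for short motifs in windows of 300 bases (250 before to 50 after the start, RefSeq on GRCm38.p6, found for 10103 of the tested genes). The letters GAGGAAGT, a site type bound by the myeloid factor PU.1, were present on either strand in 5.95% of promoters of genes at least 2-fold higher, 1.89% of those at least 2-fold lower and 3.05% of all. TAAAAATA, a core bound by MEF2 factors of muscle, was in 0.811%, 2.37% and 1.23%. The stretches below, 30 bases upstream of the start on the strand of the gene with the motif in capitals, are shown because these list members had the largest called steps among those with the motif before the start. *Pgam2* (fold 0.406), *Casq2* (0.445) and *Slc8a1* (0.458) hold the reverse complement of the MEF2 letters, *Mmp12* (4.98) and *C1qc* (2.38) that of the PU.1 letters, and *Spp1* (3.12) the PU.1 letters themselves. None of the 17 sarcomere promoters found holds the MEF2 letters. A match is not evidence of binding.
Pgam2, chr11:5803857-5803886, minus strand: ttttgtgagacTATTTTTAagttcagctcc
Casq2, chr3:102086336-102086365, plus strand: attgcatgattTATTTTTAgctcgaaacaa
Slc8a1, chr17:81738551-81738580, minus strand: gtctatatgtgTATTTTTAtcacccatgtg
Mmp12, chr9:7344298-7344327, plus strand: ccacttcacccACTTCCTCttccaagactc
Spp1, chr5:104434987-104435016, plus strand: caaaaccagagGAGGAAGTgtaggagcagg
C1qc, chr4:136893091-136893120, minus strand: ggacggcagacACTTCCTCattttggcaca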

How the data were processed

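Bulk RNA was sequenced from 8 mouse heart libraries, 1 per genotype and region. Per the labels and the submitters' processing notes, the authors trimmed reads with Trim Galore 0.6.5, quantified them with kallisto 0.46 on the mm10 transcriptome, summed transcripts to genes with tximport and used edgeR 3.34.1. The deposited values are estimated counts per gene, not normalized, and are given as whole numbers.

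Genes were tested where CPM averaged 1 or more across the 8 libraries (12999 of 16994), with TMM factors from all 8, which were 1.54 in WT infarct, 1.26 in TKO infarct and 0.866 to 0.956 in the others. The zone step was fitted with edgeR 4.0.16 (quasi-likelihood, R 4.3.3) on 4 libraries with genotype as a block, and the genotype difference on 8 libraries, each with 1 residual degree of freedom. Adjusted p-values are Benjamini-Hochberg over all genes tested, intervals of a single-genotype step are exact binomial, and those of a double ratio are log-normal from the reciprocals of the 4 counts, each with 0.5 added. Total counts ranged from 27429240 to 33799249. After TMM scaling 3 counts, the floor, equal 0.0709 CPM (WT infarct) to 0.116 CPM (TKO left ventricle). DESeq2 1.42.0, other scalings and filters, and leaving out each library were tried, and scripts were tested on simulated data. Members and gene lists were chosen with earlier results of these data known. Named genes were *Tigar*, genes the study plots, the 8 highest and 8 lowest steps with at least 200 counts, the 10 highest and 10 lowest double ratios with at least 400 counts, and in each list the extremes and the most abundant members; other list members were chosen after their values were seen. Symbols came from the table, and 27 of 153 missing ones from the annotation (GENCODE vM21).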

Additional observations from a re-analysis of the deposited data

Results flagged for a closer look

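*Myh7* was lower in the WT scar and higher in the TKO scar, with a double ratio of 3.25, and *Atp2a1*, a gene of fast skeletal muscle, took opposite steps the other way, with a double ratio of 0.122. The predicted gene *Gm14288* had 322 counts in WT border, 211 in WT infarct, 44 in TKO border and 285 in TKO infarct, a double ratio of 11.1. None of these 3 differences passed the edgeR test of the genotype difference (adjusted p = 1.0 for *Myh7*, 0.963 for *Atp2a1* and 0.568 for *Gm14288*).

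In a library outside the zone comparison, WT remote, the lung epithelium list summed to 44.2 CPM, against 4.74 in the WT and 3.55 in the TKO left ventricle. The atrial muscle list summed to 824 CPM in the same library, against 93.4 and 113 in the left ventricle and 338 in TKO remote.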

How the results depend on the processing

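With library totals alone, 8291 genes were higher and 942 lower in the infarct, against 3278 and 3107. The genes at least 2-fold higher then numbered 4387 in WT and 3068 in TKO, and those at least 2-fold lower 200 and 91. Double ratios of at least 2 went from 340 to 218, and those of 0.5 or less from 254 to 365. The median double ratio over all genes went from 1.045 to 0.912, so the side that most genes lay on changed with the scaling. The same scaling turned *Mef2d* to 0.121, *Cd163* to 0.227 and *Rps25* to 0.149 on the log2 scale. Leaving out 1 library gave 352 to 1940 genes higher and 62 to 2543 lower. The lowest counts came without TKO border, next without WT border, and without WT infarct 1082 were higher and 1178 lower. Those fits take the spread from all remaining libraries. On the log2 scale these fits gave *Cd163* between -0.747 and 0.057 (highest without TKO border), *Atp2a1* between -1.68 and 2.82, *Tnnt3* between -0.063 and 2.85 and *Myh2* between -1.78 and 3.70, the last 3 lowest without WT infarct. With no filter on low counts, 1206 double ratios were at least 2 and 1023 at most 0.5, and with a mean CPM of at least 5 these were 103 and 55. The genotype difference was called for 1 gene with either filter change and for 7 by DESeq2. Of 191 named genes, 158 kept direction and call under DESeq2 and all 191 with TMM over the 4 libraries. The cause of these shifts was not tested.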

Other observations

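Of 14 genes of the pericyte and smooth muscle list 9 rose and 1 fell, the potassium channel subunit *Abcc9* (0.488). *Lmod1*, a smooth muscle leiomodin, rose 2.85-fold, and *Rgs5*, a pericyte regulator of G protein signalling, stood at 0.664 without passing the edgeR test. The median step of the list was 1.496 in WT and 1.485 in TKO, and its summed CPM moved 1.175-fold in WT and 1.009-fold in TKO. Its median double ratio was 0.881, with 4 of 14 above 1, against 58.9% of all genes.

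In promoters, the letters TATAAA stood in 11.9% of genes at least 2-fold higher, 8.99% of those at least 2-fold lower and 7.26% of all, and TCAAGGTCA, a site type of estrogen-related receptors, in 0.36%, 0.946% and 0.267%. Both strands were searched.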
